A study of Mus musculus with 12 samples.

Results

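Gene expression was compared between Gpr34 knock-in (KI) and control B2 cells of the mouse peritoneal cavity (PerC), which make up 6 of the 12 libraries of the series, 3 of each genotype. They were chosen by their labels alone, and all genes were examined, with weight on genes counted well enough for a small change to be seen. The other 6 libraries are memory B cells (MemB) of the same genotypes. The series asked how the GPR34 KI allele changes gene expression in PerC B cells, and the B2 comparison addresses this in cells that still carry the naive IgD+IgM+ phenotype. Among the genes tested, only Gpr34 passed the edgeR test between the genotypes. For most well-counted genes the data were precise enough to place the KI effect within 2-fold in either direction.

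GPR34 is a G protein-coupled receptor for lysophosphatidylserine (lysoPS), a lysophospholipid released from phosphatidylserine by phospholipases, and it is known for its expression in macrophages, microglia, mast cells and innate lymphoid cells. Mutations that truncate its C-terminal tail occur in MALT lymphoma, a B cell tumour. B2 cells are conventional B cells that recirculate through lymphoid organs and body cavities in a resting state until they meet antigen.

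KI mice carried Cd21-Cre together with an allele at the Rosa26 locus, R26 LSL-Gpr34Q340X-IRES-GFP, in which a stop cassette between lox sites is removed by Cre and truncated, gain-of-function Gpr34 is then made with GFP from 1 transcript. Cd21 regulatory sequences switch Cre on in mature B cells, and also in follicular dendritic cells, so the allele is not confined to B2. The controls are described only by the label Control, and their alleles are not given in the sources used here. The KI allele was made on the C57BL/6N background, and mice of the study were between 8 and 20 weeks old. Cells were sorted as IgD+IgM+ from the PerC, and no gate on GFP is described, so KI libraries may also hold cells without a recombined allele. The labels call the replicates biological but do not say whether mice were pooled, and p-values measure the spread between these libraries.

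The 6 libraries held between 29895068 and 39732124 counts, of which mitochondrial and 18S ribosomal RNA took between 29.3% and 38.3%. No 2 replicates were alike to within sampling noise, and replicates of a group correlated across genes at 0.811 to 0.837 in log2 CPM, the count scaled to the library total after TMM normalization. By Xist and Y-linked counts, replicate 3 of each group was female-typed and replicates 1 and 2 were male-typed, so sex was balanced between the genotypes. The heavy chain genes followed the sort. Averaged over the genotypes, Ighd was lower in MemB than in B2 by a log2 fold change of -3.35 (edgeR adjusted p = 5.98e-18), and Ighm by -1.81 (adjusted p = 2.43e-12).

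The KI allele is named after codon 340 of Gpr34. In the GRCm39 genome, Gpr34 lies on the plus strand at chrX:13489625-13507116, inside the Cask gene, which is transcribed from the other strand. The coding sequence sits in 1 exon and has 375 codons before its stop. The stretch around codon 340 is shown because it is where the KI receptor ends; it was read from chrX:13506460-13506522, plus strand, and the capitals mark codon 340, a glutamine codon at chrX:13506490-13506492, the residue written as Q in the allele name Q340X. A stop there leaves the last 36 codons untranslated.
Gpr34 codon 340 with 30 bases on each side: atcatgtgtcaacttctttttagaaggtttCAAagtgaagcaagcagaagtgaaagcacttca

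Gpr34 was counted at 4.49, 3.44 and 6.90 CPM in control B2 replicates 1 to 3, and at 103, 113 and 101 CPM in the KI replicates. These values came from between 102 and 224 counts per control library and between 3188 and 4603 per KI library. The groups were far apart, and the KI libraries differed little among themselves, with means of 4.95 ± 1.77 CPM (SD, n = 3) in control and 106 ± 6.73 CPM (SD, n = 3) in KI B2. The log2 fold change was 4.42 (SE 0.37, 95% interval 3.66 to 5.17, edgeR adjusted p = 1.28e-07). Counts per gene do not separate transcripts of the KI allele from those of the endogenous gene. As the cells were measured in bulk, fewer cells expressing a gene and less RNA of it per cell cannot be told apart. With limma voom in place of edgeR, Gpr34 had the smallest p of all genes and a log2 fold change of 4.46, but an adjusted p of 0.0652. The rise was also past the threshold in MemB (log2 fold change 2.72, adjusted p = 0.000215), and the difference between the effects, -1.69 on the log2 scale, was not (adjusted p = 0.357).

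None of the other lysoPS receptors of the mouse passed the test. P2ry10, which encodes the lysoPS receptor P2Y10 that couples to Gα12 and Gα13, was counted at 143, 164 and 86.7 CPM in control and at 87.1, 131 and 91.6 CPM in KI B2. The groups overlapped, and the log2 fold change of -0.35 had a 95% interval from -1.06 to 0.37. Gpr174, a lysoPS receptor known to restrain lymphocyte responses, was at 42.5, 35.2 and 48.1 CPM in control and 28.0, 75.3 and 29.2 CPM in KI (log2 fold change 0.07, interval -1.0 to 1.15). P2ry10b, a paralog of P2ry10 with which reads may be shared, ranged from 19.3 to 31.3 CPM over both genotypes (log2 fold change -0.23, interval -1.41 to 0.95). The intervals of all 3 leave room for a change of more than 2-fold.

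Genes next to the receptor and to the allele were examined in the same way. Cask, a scaffold protein gene that spans Gpr34, had 7.84, 3.65 and 0.955 CPM in control and 1.64, 12 and 7.49 CPM in KI B2 (log2 fold change 0.76, interval -2.04 to 3.57), and Gpr82, an orphan receptor gene that also lies within Cask, was below 1 CPM in all 6 libraries. Setd5, one of the genes flanking the Rosa26 locus, was at 148, 198 and 217 CPM in control and 204, 266 and 217 CPM in KI, and its interval stayed within 2-fold (log2 fold change 0.29, interval -0.25 to 0.82). Thumpd3, the gene on the opposite flank, had a log2 fold change of 0.16 (interval -0.84 to 1.15). The Rosa26 noncoding transcript itself, looked up after the values were seen, varied from 4.05 to 47.6 CPM with overlapping groups (log2 fold change 1.13, interval -0.48 to 2.74). Cr2, which encodes CD21 and lends its regulatory sequences to the Cre, was at 99.1, 109 and 178 CPM in control and 127, 222 and 118 CPM in KI, again within 2-fold (log2 fold change 0.27, interval -0.41 to 0.96). Of the enzymes that act on lysoPS or its precursor, Abhd12 lay between 12.4 and 53.6 CPM and Abhd16a between 4.81 and 25.1 CPM with overlapping groups. Pla1a had no count in any of the 6 libraries and was not tested. In the list of 12 such genes, 11 were tested, and Gpr34 was the only one called.

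**Figure D1:**
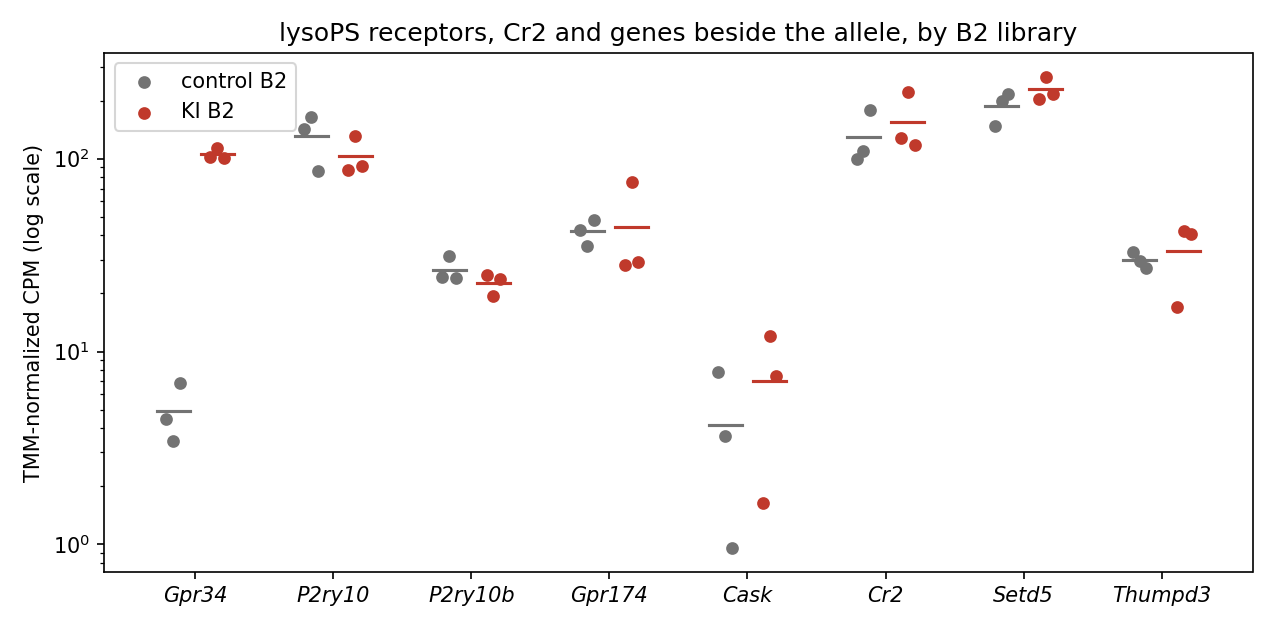
TMM-normalized CPM on a log scale for the lysoPS receptors, Cask, Cr2 and the genes flanking Rosa26 in each control (grey) and KI (red) B2 library, with a bar at each group mean. The 3 KI libraries of Gpr34 sit between 101 and 113 CPM, above controls between 3.44 and 6.90 CPM, whereas the points of each other gene overlap.

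Across the genome, 14933 genes had enough counts to be tested, and 1 of them, Gpr34, met both limits in edgeR, 0.05 for the adjusted p and 1 for the size of the log2 fold change, a share of 0.0067%. Leaving out KI replicate 3 added a call for Gm26759, a gene named after its values were seen, which had 21.8, 20.3 and 67.2 CPM in control and 0, 0 and 1.98 CPM in KI B2. An unadjusted p below 0.05 was found for 856 genes (5.73%), 426 higher and 430 lower in KI. The 3 KI libraries lay all above or all below the 3 control libraries for 1529 genes (10.2%). Replicates were variable, with a pooled biological coefficient of variation of 91.3%, so the lack of a call carries little information for genes with few counts. To show where it does, the 95% interval of each log2 fold change was compared with the limits -1 and 1. The interval lay wholly inside them for 1627 genes, or 10.9% of those tested. Intervals were not adjusted for the number of genes, and genes whose interval crosses a limit are undecided rather than changed.

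Precision depended on the level of the gene. Genes were called well-counted when their mean over the 6 B2 libraries was at least 50 CPM, which 2685 were, some of them, such as Gpr34, through the genotype with the higher level alone. In 1578 of these (58.8%) the KI effect was held within 2-fold. The share was 34.3% at 50 to 100 CPM, 76.9% at 100 to 200 CPM, 95.4% at 200 to 500 CPM and 95.6% at 500 CPM or more, but 1.70% at 20 to 50 CPM. Among well-counted genes the median log2 fold change was -0.04, the median of its size 0.21 and the median SE 0.34, so the typical difference was smaller than its own error. An unadjusted p below 0.05 was found for 101 of them (3.76%, 39 higher and 62 lower), and the genotypes did not overlap for 268 (9.98%, 110 higher and 158 lower). Fitted differences beyond 2-fold occurred in 28 well-counted genes, in 1 of the 1301 genes at 100 CPM or more, and in none of the 553 genes at 200 CPM or more.

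**Figure D2:**
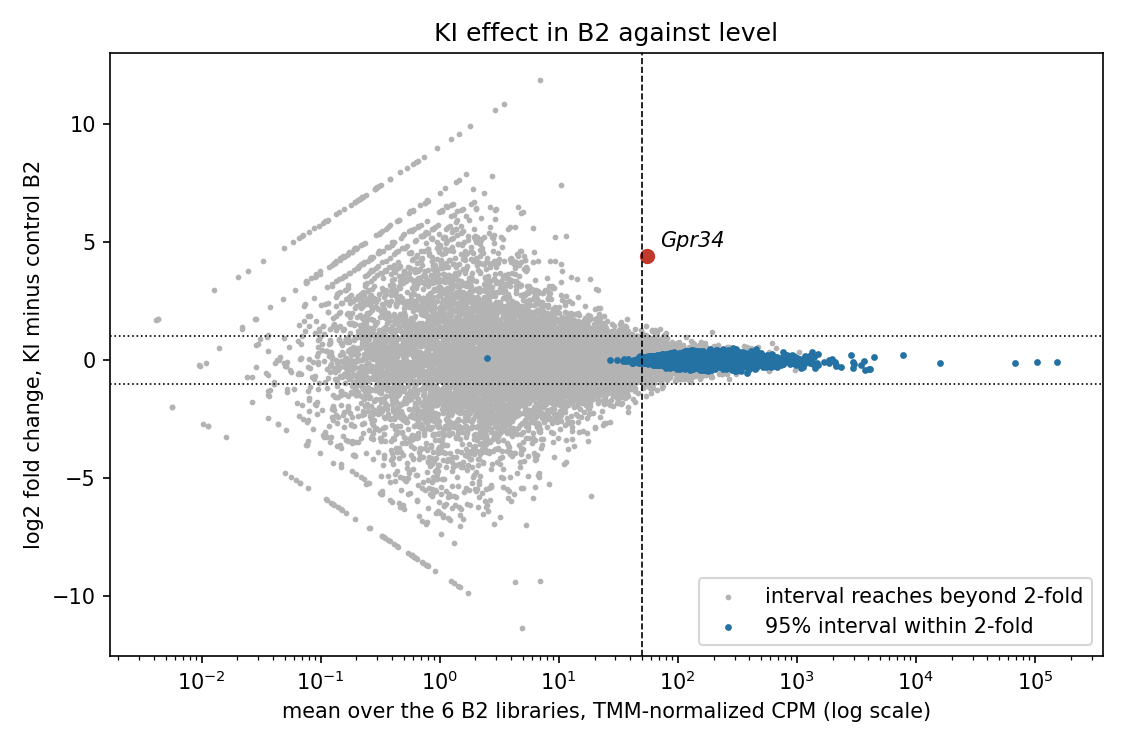
Fitted log2 fold change of KI against control B2 for 14933 genes, plotted against the mean over the 6 B2 libraries in TMM-normalized CPM (log scale). Blue points have a 95% interval within 2-fold, dotted lines mark log2 fold changes of -1 and 1, the dashed line marks 50 CPM, and Gpr34 at 4.42 stands apart from genes of its level, while oblique lines of points at low levels are genes with few counts in 1 genotype.

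**Figure D3:**
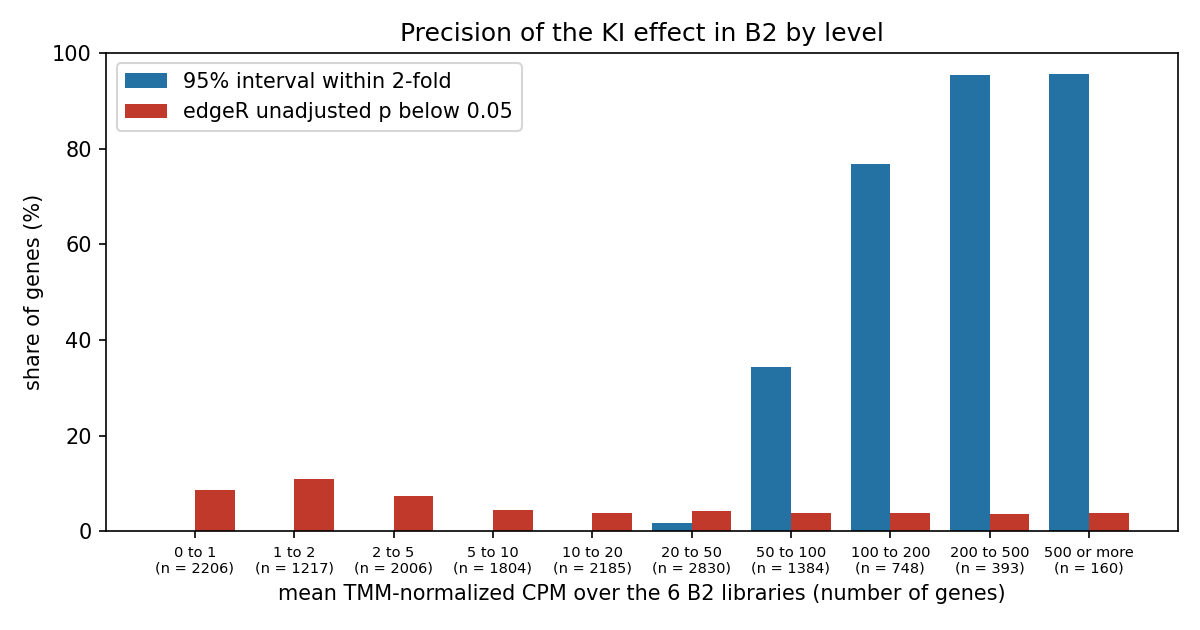
Share of genes in each class of mean CPM whose 95% interval lay within 2-fold (blue) and whose unadjusted edgeR p was below 0.05 (red), with the number of genes under each class. The blue share reaches 95.6% at 500 CPM or more, and the red share is 3.75% in that class.

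The genes measured most tightly were those of housekeeping abundance. Actb, the cytoplasmic actin gene, had 3170, 3520 and 4525 CPM in control and 3757, 3756 and 3299 CPM in KI B2, and a log2 fold change of -0.05 (interval -0.32 to 0.22). Eef1a1, a translation elongation factor gene, had 3264, 3071 and 2833 CPM in control and 2603, 2908 and 3031 CPM in KI (-0.10, interval -0.37 to 0.17). The groups overlapped in both. Ahnak, Macf1, Malat1, Lars2, Itga4, mt-Atp6, mt-Nd4 and Rn18s-rs5 completed the 10 narrowest intervals, and each was held. Lars2, at between 1923 and 2345 CPM, the 18S ribosomal RNA gene Rn18s-rs5 and mt-Nd4 lay below the control range in all KI libraries, with log2 fold changes of -0.20, -0.08 and -0.36, and mt-Nd4 was the only 1 of the 10 whose interval did not include 0 (-0.61 to -0.11).

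The gene lists that follow can be read against the shares over all genes tested, which were 5.73% for an unadjusted p below 0.05, 1.13% for a DESeq2 call, 10.2% for genotypes that did not overlap and 48.4% for a positive log2 fold change. Among well-counted genes, 58.8% were held within 2-fold. That share rose with level, from 34.3% at 50 to 100 CPM to 95.6% at 500 CPM or more. A list of highly counted genes is therefore held more often whatever its members do, and held counts were not matched for level. Genes that define the naive follicular state gave no call and mostly narrow intervals. Of 26 genes listed, all were tested, 23 were well-counted, and 20 of these were held within 2-fold. None was called by edgeR or DESeq2, 2 had an unadjusted p below 0.05, and the median log2 fold change was -0.09, against -0.03 over all genes tested. Of the 26, 7 had a positive log2 fold change (26.9%, against 48.4%) and 19 a negative one. The summed level of the list did not overlap, at 12283 to 12346 CPM in control and 10723 to 11742 CPM in KI B2. Ighm, the largest member, took 4100 to 4366 CPM of this in control and 2925 to 3621 CPM in KI. Without Ighm the sums overlapped. Ighd, the IgD heavy chain gene, had 1704, 1363 and 1539 CPM in control and 1346, 1306 and 1589 CPM in KI B2. The values overlapped, and the log2 fold change was -0.12 (interval -0.48 to 0.24). Foxp1, a transcription factor gene of resting B cells, had 641, 738 and 678 CPM in control and 811, 591 and 546 CPM in KI (-0.08, interval -0.48 to 0.32). The genotypes overlapped widely here too.

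Ighm and Tnfrsf13c were the members of this list with the smallest p. Ighm, the IgM heavy chain gene, had 4366, 4100 and 4274 CPM in control and 2925, 2999 and 3621 CPM in KI B2, so that every KI library was below every control library. The log2 fold change of -0.42 (interval -0.75 to -0.08) was within 2-fold and did not pass the test over all genes (adjusted p = 0.837). Tnfrsf13c, encoding the receptor for the B cell survival factor BAFF, went the other way, with 490, 511 and 414 CPM in control and 683, 816 and 807 CPM in KI. Its log2 fold change was 0.70 (interval 0.32 to 1.09, adjusted p = 0.837), and again the groups were apart. Neither counts as a call, in a contrast where 9.98% of well-counted genes did not overlap.

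**Figure D4:**
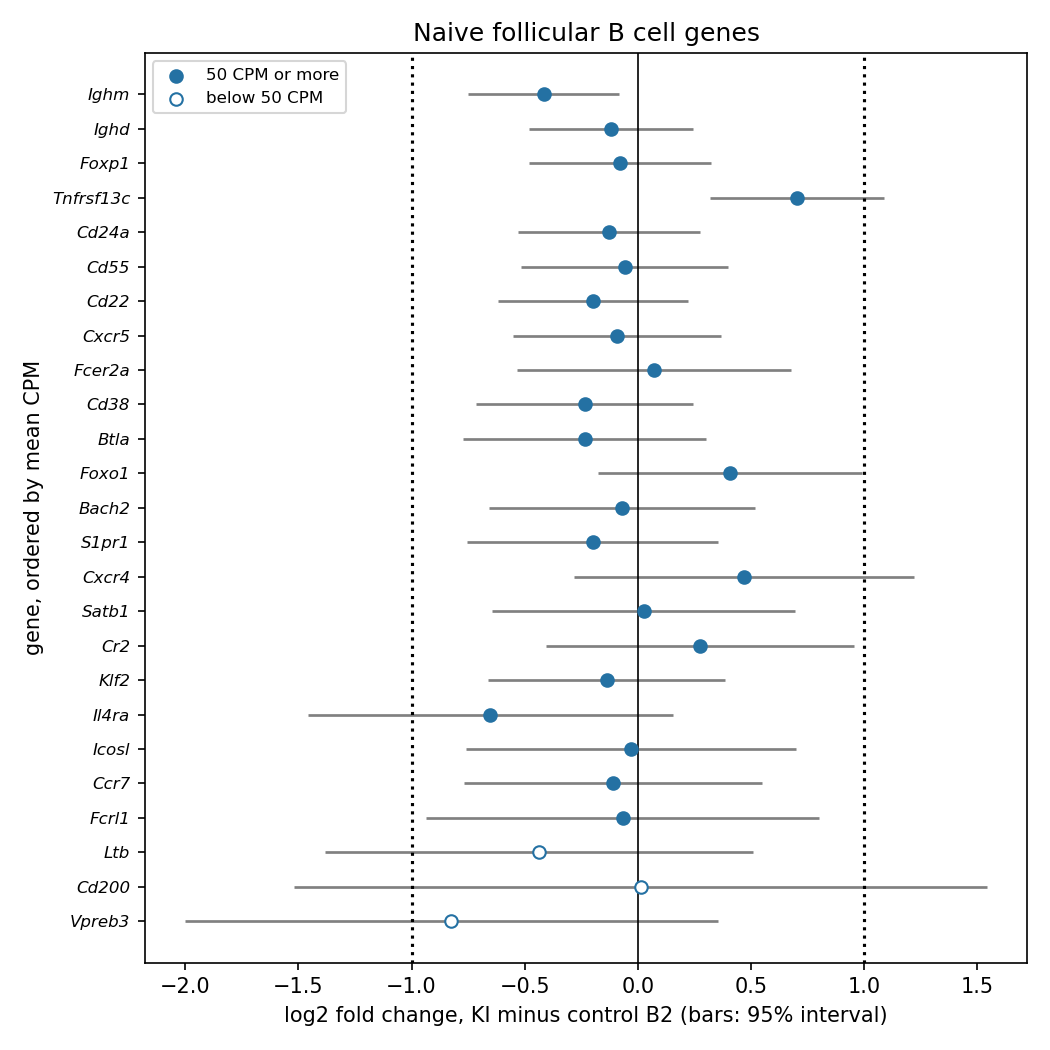
Log2 fold change of KI against control B2 with its 95% interval for 25 naive follicular B cell genes, ordered from the highest mean CPM at the top, with filled points for well-counted genes and dotted lines at 2-fold. The intervals of 19 filled points stay between the dotted lines, Ighm lies at -0.42 and Tnfrsf13c at 0.70.

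B cell identity genes gave no call, and most were held. Of 25 pan-B cell genes tested, 22 were well-counted and 21 of these were held (median log2 fold change -0.11); edgeR and DESeq2 called none, 1 had an unadjusted p below 0.05, and the genotypes did not overlap in 5 (20%, against 10.2% of all genes tested), 2 higher and 3 lower in KI. Cd74, the invariant chain gene, had 2059, 2092 and 2844 CPM in control and 1754, 1953 and 2188 CPM in KI (log2 fold change -0.25, interval -0.55 to 0.06). Ms4a1, encoding CD20, had 762, 837 and 712 CPM in control and 645, 739 and 769 CPM in KI (-0.10, interval -0.45 to 0.25). These groups overlapped, as did those of Ptprc, the CD45 gene (0.16, interval -0.14 to 0.45), and Pou2af1, a B cell coactivator gene (0.02, interval -0.42 to 0.45). The member with an unadjusted p below 0.05 was Spi1, which encodes PU.1 and was below 50 CPM on average, with 50.9, 24.5 and 81.7 CPM in control and 18.8, 15.4 and 29.3 CPM in KI (log2 fold change -1.31, adjusted p = 0.849).

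For signalling below the B cell receptor, 29 genes were tested, 27 were well-counted and 19 of these were held, with a median log2 fold change of -0.00. edgeR and DESeq2 called none, and 2 had an unadjusted p below 0.05. Syk, the kinase that starts the cascade, had 522, 539 and 492 CPM in control and 485, 500 and 524 CPM in KI B2 (log2 fold change -0.04, interval -0.43 to 0.34). Bank1, a B cell scaffold gene (0.07, interval -0.25 to 0.40) and Malt1, a paracaspase gene of the NF-κB branch (0.08, interval -0.39 to 0.56), were also held. The values with the smallest p pointed in opposite directions. Pik3cd, the PI3 kinase δ catalytic subunit, had 128, 142 and 212 CPM in control and 119, 89.6 and 80.1 CPM in KI (-0.74, interval -1.37 to -0.11, adjusted p = 0.837), and Vav1, a guanine exchange factor gene, had 37.9, 36.0 and 21.8 CPM in control and 56.3, 56.9 and 65.4 CPM in KI (0.90, interval 0.01 to 1.79, adjusted p = 0.849).

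Of 14 tested genes of MHC class II presentation, 12 were well-counted and 10 of these were held, with a median log2 fold change of -0.12. None was called by either tool or had an unadjusted p below 0.05. H2-Aa, H2-Ab1 and H2-Eb1, which encode chains of the class II molecules, had log2 fold changes of -0.10, -0.14 and -0.09, with overlapping groups. H2-Eb1 lay between 702 and 819 CPM in control and between 707 and 744 CPM in KI B2. Over the list, 4 members had a positive log2 fold change (28.6%, against 48.4% of all genes tested), and none of the 14 had genotypes that did not overlap. The summed level did not overlap, at 7561 to 8395 CPM in control and 6621 to 7499.9 CPM in KI.

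The machinery that a G protein-coupled receptor acts through gave no call either. Of 28 tested genes for G proteins, RGS proteins, receptor kinases, arrestins and their effectors, 17 were well-counted and 13 of these were held, with a median log2 fold change of -0.06. edgeR and DESeq2 called none and no gene had an unadjusted p below 0.05. Arhgef1, an exchange factor that acts downstream of Gα13, had 342, 370 and 295 CPM in control and 314, 250 and 284 CPM in KI B2 (-0.25, interval -0.68 to 0.19). Dock2, an activator of Rac in migrating lymphocytes (0.15, interval -0.22 to 0.52), Rhoa (-0.14, interval -0.55 to 0.28) and Rac2 (-0.11, interval -0.52 to 0.30), both small GTPase genes, were held as well. Gnai3, an inhibitory G protein subunit, had the smallest p of the well-counted members, at 130, 97.6 and 62.6 CPM in control and 156, 117 and 127 CPM in KI (0.47, interval -0.16 to 1.09). Rgs3, which shortens G protein signals, was at 2.43, 4.93 and 2.71 CPM in control and 15.0, 2.64 and 16.5 CPM in KI, and the genotypes overlapped.

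Receptors that place B cells in tissues were tested next. Of 23 genes, 12 were well-counted and 7 of these were held, with a median log2 fold change of -0.11. No gene was called by edgeR and 1 by DESeq2, while the unadjusted p was below 0.05 for 4. Cxcr5, the follicle homing receptor, had 308, 400 and 400 CPM in control and 343, 351 and 346 CPM in KI B2 (-0.09, interval -0.55 to 0.37). S1pr1, the egress receptor, had 154, 230 and 185 CPM in control and 154, 165 and 176 CPM in KI (-0.20, interval -0.75 to 0.35). Itga4, an integrin subunit of cavity and mucosal homing, was among the most tightly measured genes (-0.18, interval -0.47 to 0.12). All 3 overlapped between the genotypes. Cxcr3, an inflammatory chemokine receptor, was at 4.70, 10.5 and 8.57 CPM in control and 3.12, 1.63 and 3.99 CPM in KI (-1.45, edgeR adjusted p = 0.837).

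Proliferation genes were mostly too low in B2 to be placed. Of 62 S-phase and G2/M genes tested, 5 were well-counted and 4 of these were held; edgeR and DESeq2 called none, and 4 had an unadjusted p below 0.05. Fitted values were positive for 42 (67.7%, against 48.4% of all genes tested) and negative for 20, with a median log2 fold change of 0.28, and of 0.05 over the 5 well-counted members. Mki67, the Ki67 gene, had 90.0, 149 and 240 CPM in control and 132, 86.8 and 267 CPM in KI B2, a log2 fold change of 0.02 (interval -0.70 to 0.75). The groups covered the same range, and the female-typed library was the highest of each. Smc4, a condensin gene (-0.18, interval -0.75 to 0.38), and Tubb4b, a tubulin gene (0.15, interval -0.55 to 0.84), were held, while Pcna, the replication clamp gene, was not (0.45, interval -0.27 to 1.16). Cdc6, a replication licensing gene, was at 0.304, 0.203 and 2.80 CPM in control and 0.322, 13.2 and 21.3 CPM in KI. KI replicate 1 was as low as the controls, and edgeR gave an adjusted p of 0.837. Kif2c, a mitotic kinesin gene, showed the same split, with KI replicate 1 at 0.0643 CPM and the others at 3.57 and 5.33 CPM.

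Of 20 quiescence genes, 13 were well-counted and 11 of these were held, with a median log2 fold change of -0.12. Neither tool called any, and none had an unadjusted p below 0.05. Btg1, an antiproliferative gene, had 451, 519 and 453 CPM in control and 416, 490 and 487 CPM in KI B2 (-0.03, interval -0.42 to 0.36). Klf3 and Klf6, Krüppel-like factor genes, had log2 fold changes of -0.24 and 0.15 with overlapping groups.

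Of 28 activation and immediate early genes, 8 were well-counted and 6 of these were held; the median log2 fold change was -0.28, neither tool called any, and 2 had an unadjusted p below 0.05. Cd69, an early activation marker, had 203, 237 and 227 CPM in control and 246, 321 and 144 CPM in KI B2 (0.09, interval -0.47 to 0.66). Cd44 (0.04), Irf4 (-0.20) and Pim1 (-0.26) were held too. Egr1, an immediate early factor, had 19.1, 10.8 and 20.7 CPM in control and 23.2, 85.5 and 37.6 CPM in KI (1.53, interval 0.34 to 2.73, adjusted p = 0.837). Fos, another immediate early factor, had 13.2, 10.1 and 7.92 CPM in control and 32.8, 52.3 and 8.65 CPM in KI (1.59, interval 0.22 to 2.95, adjusted p = 0.837). KI replicate 2 was the highest in both, and KI replicate 3 was within the control range for Fos.

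Cholesterol synthesis genes gave mostly positive values and no call. Of 24 genes tested, 18 had a positive log2 fold change (75%, against 48.4% of all genes tested) and 6 a negative one, with a median of 0.61, and of 0.24 over the 5 well-counted members. In 6 (25%, against 5.24%) every KI library was higher than every control library. No gene was called by edgeR or DESeq2, and 3 had an unadjusted p below 0.05. Hmgcs1, which makes the precursor of mevalonate, had 46.0, 49.8 and 28.5 CPM in control and 119, 80.1 and 74.2 CPM in KI B2 (1.14, interval 0.36 to 1.92, adjusted p = 0.837). Cyp51, a lanosterol demethylase gene, had 96.7, 114 and 111 CPM in control and 176, 117 and 157 CPM in KI (0.49, interval -0.06 to 1.04). For both genes the KI libraries were all above the controls. Srebf2, the transcription factor of the pathway, was held within 2-fold with overlapping groups (0.24, interval -0.33 to 0.81). Nsdhl, a later enzyme, lay in the opposite direction, with 22.8, 16.5 and 12.8 CPM in control and 5.34, 2.98 and 1.98 CPM in KI (-2.34, adjusted p = 0.837).

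Survival genes were tested because GPR34 mutations occur in lymphoma. Of 22 members of the BCL2 family and survival receptors, 8 were well-counted and 3 of these were held; neither tool called any, 2 had an unadjusted p below 0.05, and the median log2 fold change was 0.09, and -0.01 over the well-counted members. Mcl1, an antiapoptotic gene, had 917, 996 and 733 CPM in control and 971, 829 and 916 CPM in KI B2 (0.04, interval -0.32 to 0.39). Bcl2 had 187, 263 and 160 CPM in control and 101, 155 and 157 CPM in KI (-0.57, interval -1.19 to 0.05), with no overlap. Cd40, the receptor for T cell help, was also lower in every KI library, at 24.9, 25.3 and 22.3 CPM against 48.9, 77.4 and 42.6 CPM (-1.22, adjusted p = 0.842). Of 16 p53 targets, 5 were well-counted and none was held, with a positive log2 fold change in 12 (75%) and a median of 0.67. The well-counted members had a median of the opposite sign, -0.44, and 4 of these 5 were negative. No target was called by edgeR and 1 by DESeq2, while the unadjusted p was below 0.05 for 2. Cdkn1a, the p21 cell cycle inhibitor gene, had 0.203, 0.304 and 1.20 CPM in control and 0.386, 8.25 and 13.8 CPM in KI (3.71, edgeR adjusted p = 0.837, DESeq2 adjusted p = 0.0260), with KI replicate 1 again in the control range. Mdm2, a negative regulator of p53, was at 136, 135 and 136 CPM in control and 60.9, 79.7 and 119 CPM in KI (-0.65, adjusted p = 0.842).

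Of 26 interferon-stimulated genes tested, 8 were well-counted and 1 of these was held; no gene was called by edgeR and 1 by DESeq2, while the unadjusted p was below 0.05 for 1 (median log2 fold change 0.34). Ifi203 was the gene held (-0.11, interval -0.49 to 0.26). Parp12, the gene called by DESeq2, was at 0, 0 and 0.0616 CPM in control and at 1.45, 5.00 and 0.335 CPM in KI.

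Nearly all ribosomal protein genes were held. Of 81, 80 were well-counted and 79 of these were held, with a median log2 fold change of -0.03; neither tool called any, and 1 had an unadjusted p below 0.05. Rpl41 had 1361, 1264 and 1352 CPM in control and 1304, 1312 and 1348 CPM in KI B2 (-0.00, interval -0.33 to 0.32). The well-counted member that was not held was Rpl5, with 94.4, 98.9 and 173 CPM in control and 60.9, 79.8 and 69.9 CPM in KI (-0.80, interval -1.47 to -0.13, adjusted p = 0.837). Of the 13 protein-coding genes of the mitochondrial genome, 12 were held and 12 had a negative log2 fold change, with a median of -0.16. None was called, and 3 had an unadjusted p below 0.05. mt-Nd4, a subunit gene of complex I, had 4969, 4467 and 4154 CPM in control and 3084, 3782 and 3730 CPM in KI (-0.36, interval -0.61 to -0.11, adjusted p = 0.837). The mitochondrial transcripts come from 1 genome and do not vary independently, and their share of counts ranged from 3.38% to 4.71% in control and from 3.30% to 4.01% in KI libraries.

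Among immunoglobulin constant and plasma cell genes, 25 were tested, 12 were well-counted and 9 of these were held, with a median log2 fold change of -0.12. Neither tool called any, and 4 had an unadjusted p below 0.05, all lower in KI. The summed level did not overlap, at 8936 to 10198 CPM in control and 7444 to 8852 CPM in KI B2. Ighm, which is also on the naive follicular list, was the largest member, and without it the sums overlapped. Igkc, the κ chain constant gene, had 1859, 1898 and 2115 CPM in control and 1806, 1681 and 1916 CPM in KI B2 (-0.12, interval -0.44 to 0.20). Iglc2, a λ chain constant gene that may share reads with its paralogs, had 464, 383 and 514 CPM in control and 314, 235 and 380 CPM in KI (-0.55, interval -0.97 to -0.13, adjusted p = 0.837). Of 154 immunoglobulin variable genes tested, 2 were well-counted and none was held, which leaves the repertoire undecided. No variable gene was called by edgeR and 1 by DESeq2, while the unadjusted p was below 0.05 for 5.

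Among well-counted genes other than Gpr34, the smallest p belonged to St8sia6, a sialyltransferase gene, which had 104, 81.4 and 75.5 CPM in control and 24.9, 38.5 and 35.7 CPM in KI B2. The groups were apart, and the log2 fold change was -1.40 (interval -2.03 to -0.77), but the edgeR adjusted p was 0.724. Bhlhe41, a transcription factor gene of B-1 and memory B cells, had 104, 94.0 and 100 CPM in control and 65.8, 52.3 and 61.3 CPM in KI (-0.73, interval -1.22 to -0.24). Cux1, a homeobox factor gene, also had separated groups, with means of 168 ± 5.97 CPM in control and 88.2 ± 10.2 CPM in KI (SD, n = 3). Prkx, a protein kinase gene on the X chromosome, Gm4631 and 9530068E07Rik were the other low values, at log2 fold changes of -1.54, -1.20 and -1.28. On the high side, Swt1 had 52.8, 56.4 and 39.1 CPM in control and 78.0, 135 and 119 CPM in KI (1.17, interval 0.44 to 1.89). Anxa2, an annexin gene, had 37.3, 24.9 and 43.2 CPM in control and 69.1, 48.7 and 96.3 CPM in KI (1.02, interval 0.41 to 1.63). Ctnnb1, the β-catenin gene, had 122, 104 and 121 CPM in control and 217, 201 and 178 CPM in KI (0.78, interval 0.28 to 1.29), and Slu7, a splicing factor gene, had a log2 fold change of 1.45. Except for Prkx, the genotypes did not overlap in these genes, and the adjusted p was 0.837 for each other than St8sia6. These genes were named for their small p, so the separation is a description. Several reached a mean of 50 CPM through their higher group alone, as the lower group had a mean of 33.0 CPM for St8sia6, 27.4 CPM for Prkx, 45.0 CPM for Gm4631, 39.4 CPM for 9530068E07Rik, 49.4 CPM for Swt1, 35.1 CPM for Anxa2 and 28.9 CPM for Slu7.

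DESeq2, the tool of the study, called 168 of the genes tested (1.13%) on the same counts with the same limits, 104 higher and 64 lower in KI B2. Of these, 3 were well-counted, namely Gpr34, Swt1 and St8sia6, and 143 had a mean below 10 CPM. Each of the 3 reached 50 CPM through its higher group alone. Over all 168, the median of the mean levels was 2.61 CPM. Of the 168, the genotypes did not overlap in 127, and in 128 over 50% of the signal of the higher group came from a single library. In 60 the lower group had 3 counts or fewer in every library. Only Gpr34 was called by both tools, although 159 of the 168 had an unadjusted edgeR p below 0.05. Over all genes tested, 5.73% had such a p and 10.2% had genotypes that did not overlap. The 168 were picked by DESeq2 on the same counts, so their small edgeR p and separation follow from that choice and add no support. DESeq2 gave no adjusted p for 678 genes.

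The best-counted DESeq2 calls below 50 CPM were separated in every library. Gclc, the catalytic subunit of glutathione synthesis, had 78.1, 58.8 and 66.2 CPM in control and 18, 22.1 and 19.5 CPM in KI B2 (log2 fold change -1.77, DESeq2 adjusted p = 0.00656, edgeR adjusted p = 0.837). Hint3 had 30.9, 58.4 and 55.5 CPM in control and 13.4, 14.3 and 13.6 CPM in KI (-1.81, DESeq2 adjusted p = 0.00163). Flcn, the folliculin gene, Sgpp2, a sphingosine-1-phosphate phosphatase gene, and Slc35b2, a sulfate donor transporter gene, were also lower. On the high side, Rassf1, a Ras-association family gene, had 5.27, 10.3 and 6.50 CPM in control and 34.3, 42.9 and 22.5 CPM in KI (2.17, DESeq2 adjusted p = 0.0142), and Abcd4, Prdx5 and Tomm7 had log2 fold changes of 2.67, 1.77 and 1.77. All of these had an edgeR adjusted p of 0.837.

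**Figure D5:**
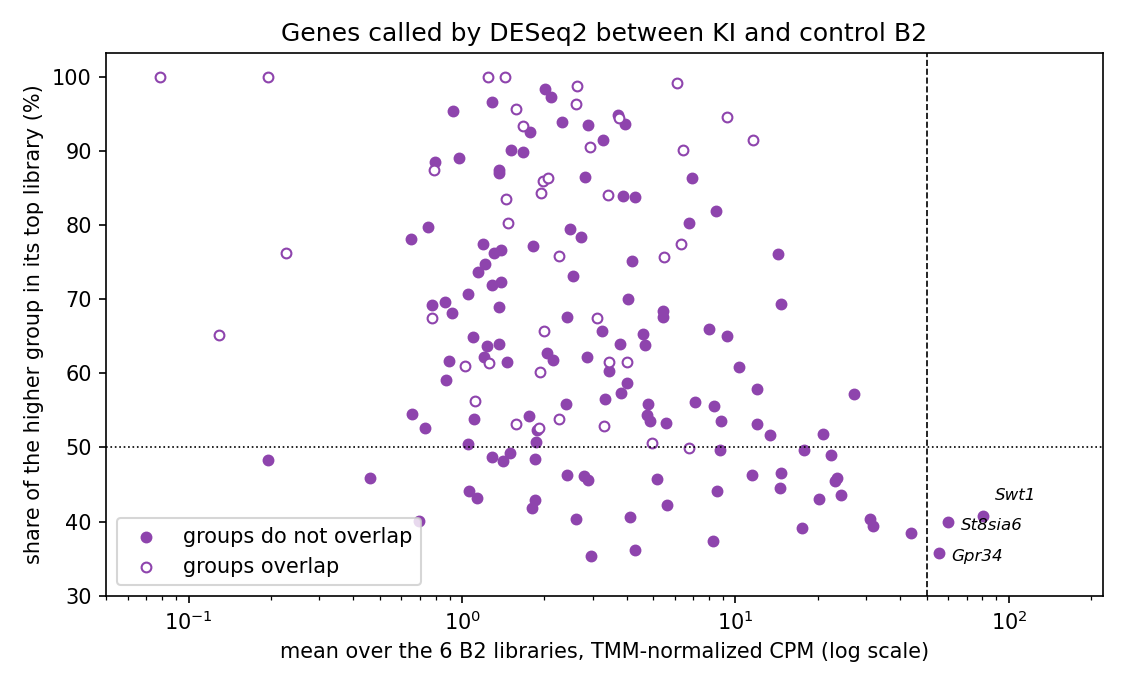
The 168 genes called by DESeq2 between KI and control B2, by mean TMM-normalized CPM over the 6 libraries (log scale) and by the share of the higher group's signal that came from its highest library. Filled points are genes whose groups did not overlap, the dashed line marks 50 CPM and the dotted line 50%, and Gpr34, St8sia6 and Swt1 lie right of the dashed line while 128 points lie above the dotted line.

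Markers of other cells were mostly low, and few of them could be placed. The KI effect was held within 2-fold for none of 10 tested macrophage and monocyte markers, for none of 4 mast cell, eosinophil and neutrophil markers, for 1 of 19 T and NK cell markers and for none of 2 stromal and endothelial markers. edgeR and DESeq2 called none of them. An unadjusted p below 0.05 was found for 1 macrophage marker and 3 mast cell, eosinophil and neutrophil markers, all higher in KI, and for Pecam1, an endothelial adhesion gene that some leukocytes also express, with 145, 187 and 96.8 CPM in control and 97.0, 67.1 and 83.7 CPM in KI B2 (-0.79, interval -1.46 to -0.12, adjusted p = 0.837). The macrophage marker was Nr1h3, with 4, 1 and 1 counts in control and 183, 3 and 23 counts in KI B2. Its groups overlapped, and its value rested mainly on KI replicate 1. Of 24 macrophage and monocyte markers in the table, 10 had no count in any of the 6 libraries, Cd14, C1qa and Gata6 among them, and the summed level was 53.2 to 73.5 CPM in control and 38.7 to 74.8 CPM in KI B2. T and NK cell markers summed to between 472 and 504 CPM in control and between 369 and 516 CPM in KI, mostly from Cd2, which B cells also express (262 to 389 CPM). Mast cell, eosinophil and neutrophil markers summed to between 0.777 and 2.64 CPM in control and between 1.16 and 53.3 CPM in KI. The high value was KI replicate 3 alone. Cpa3, a mast cell protease gene, had 25.0 CPM there and at most 0.541 CPM in the other 5 libraries, Cma1 had 15.9 CPM against at most 0.924 CPM, and Mcpt4 had 942 counts against at most 7. The mast cell genes Fcer1a and Ms4a2 had at most 3 and 0 counts. Without KI replicate 3, the log2 fold changes of Cpa3 and Cma1 went from 4.42 to 0.13 and from 3.05 to 0.03. Without the same library, the log2 fold change of Gpr34 was 4.44.

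Markers of other B cell subsets were compared because the sort rests on IgD and IgM only. Of 16 B-1 cell markers tested, 4 were well-counted and 1 of these was held, and 4 had an unadjusted p below 0.05 (25%, against 5.73% of all genes tested), 3 of them lower in KI. The median log2 fold change was -0.31 over the 16 and of the opposite sign, 0.26, over the 4 well-counted members. Of these 4, Anxa2 and Zbtb32 reached 50 CPM through the KI group alone, with control means of 35.1 and 46.4 CPM. The sign of the second median therefore depends on that limit. For 13 memory B cell markers the median was 0.40, with 2 of 4 well-counted members held and 1 unadjusted p below 0.05. For 9 marginal zone markers it was -0.40, with 3 of 4 held and 1 unadjusted p below 0.05. edgeR called none in the 3 lists, and DESeq2 called 1, the marginal zone gene Asb2. The extreme members pulled in both directions, as with Bhlhe41 and Anxa2 above, and Asb2 rested on control replicate 1, at 5.20 CPM against at most 0.185 CPM in the other libraries. St8sia6, Bhlhe41 and Anxa2 were also higher in MemB than in B2, by log2 fold changes of 1.70, 1.89 and 2.20, and the part of subset makeup in their B2 values was not tested.

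The KI effect was finally compared with the effect in MemB. Whether B2 and MemB libraries of a genotype came from the same mice is not stated, and mouse was not modelled. Between KI and control MemB, 42 genes passed the edgeR test. Without Gpr34, none of the remaining 41 was called in B2 by edgeR, and 2 were called by DESeq2 (4.88%, against 1.13% of all genes tested). The unadjusted p was below 0.05 for 10 of the 41 (24.4%, against 5.73%), and the genotypes did not overlap in 11 (26.8%, against 10.2%), 3 of them higher and 8 lower in KI B2. The 41 were called in the same fit, where both contrasts share each gene's estimate of spread. Genes with little spread are favoured in both, so these shares are a description and do not measure a shared effect. Of the 19 that were well-counted in B2, 12 were held within 2-fold (58.8% of all well-counted genes were). The median log2 fold change in B2 was -0.25 over the 41 and -0.18 over the 19. The difference between the effects passed the test for 10 genes (0.067%), a count that was 5 to 10 with 1 library left out (5 without control B2 replicate 2 and 6 without control B2 replicate 3), 6 with a replicate block, 3 without immunoglobulin genes, some of which are among the 10, 4 with a non-robust fit, 41 without a filter on low counts and 414 with DESeq2. In B2, Jchain, the joining chain of secreted IgM and IgA, had 11.4, 1.96 and 1.63 CPM in control and 2.51, 3.57 and 3.58 CPM in KI. Myb, a transcription factor gene of dividing progenitors, had 11.4, 7.06 and 15.6 CPM in control and 23.4, 12.7 and 30.6 CPM in KI. Dnase1l3, a secreted nuclease gene, had 77.2, 116 and 29.7 CPM in control and 47.5, 42.9 and 89.9 CPM in KI. The genotypes overlapped in B2 for each of these, and for Ighd, Ighm and Gm37376 the B2 effects were held within 2-fold. Besides Ighm, the genotypes did not overlap for 2 low genes among the 10. Gm6297 had 0.710, 3.78 and 0.770 CPM in control and 9.27, 7.84 and 7.72 CPM in KI B2 (2.24, interval 0.47 to 4.00, edgeR adjusted p = 0.837). Gm20537 had 79, 117 and 411 counts in control and 0, 5 and 2 counts in KI B2 (edgeR adjusted p = 0.837, DESeq2 adjusted p = 0.000365).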

How the data were processed

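RNA from sorted PerC B2 and MemB cells was amplified (Ovation RNA-seq System V2, not described as stranded) and sequenced as paired-end reads of 50 bases. Per the labels and methods, the authors used FastQC 0.12.1, cutadapt 4.5, STAR 2.7.11a on mm39 and RSEM 1.3.3, and deposited expected counts per gene, not normalized; the annotation release is not given in the sources used here. RSEM shares reads between similar genes, so paralogs, overlapping and antisense genes are uncertain, and 32.2% of non-zero values were not whole. Expected counts were rounded. Of 56941 rows, 813 without a gene symbol (0.605% to 0.686% of the B2 counts) were left out of library sizes and tests. Gene symbols in the table have dots for hyphens. Each column was matched by its name, and 0 columns were without a library.

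edgeR 4.0.16 in R 4.3.3 was run with TMM normalization, filterByExpr (minimum count 10) and robust quasi-likelihood fits of 4 group means over all 12 libraries, with Benjamini-Hochberg adjustment over 14933 genes. Limits for DEGs were 0.05 for the adjusted p and 1 for the size of the log2 fold change. The 95% intervals are Wald intervals from the quasi-likelihood weights. DESeq2 1.42.0, the tool named in the study's methods, and limma 3.58.1 voom were run as alternatives. Scripts were tested on simulated data. Amplified reads carry no molecular identifiers, so depth covers counting error only.

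Gene lists and the genes compared were chosen with earlier results of these data known. Named genes were all lysoPS and allele genes, the up to 4 best-counted and 2 of smallest p in each of the other lists, the 6 higher and 6 lower well-counted genes of smallest p, all edgeR DEGs, the 6 best-counted DESeq2 DEGs in each direction, the 10 narrowest intervals and the genes whose KI effect differed between cell types; others are said to be chosen after their values were seen. No pairing of libraries by replicate number is stated, either across genotypes or between B2 and MemB. Gene positions were taken from GENCODE M39 (GRCm39, identical to mm39). Alternatives were other normalizations, filters, fits and gene classes left out, sex or replicate as covariates, and each library left out. Some genes are not reported here.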

Additional observations from a re-analysis of the deposited data

Results flagged for a closer look

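The difference between the KI effects in MemB and in B2 passed the edgeR test for 10 genes, given here as the MemB effect minus the B2 effect on the log2 scale. The count was 5 without control B2 replicate 2, 6 without control B2 replicate 3, 6 with a replicate block and 3 without immunoglobulin genes, some of which are among the 10. The difference was 4.42 for Jchain, -2.05 for Ighm, -1.23 for Ighd, -5.04 for Myb, -3.69 for Dnase1l3 and -5.49 for the immunoglobulin variable gene Ighv11-2. It was -9.45 for Cma1, whose B2 effect rested on KI B2 replicate 3. It was -1.03 for Gm37376 and -8.14 for Gm6297. The value for Gm20537, 15.66, depends on groups at or near 0 counts and is not a measured size.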

How the results depend on the processing

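Gpr34 was called under every edgeR alternative and with DESeq2 on all libraries, with log2 fold changes of 4.21 to 4.78; under limma voom it had the smallest p, an adjusted p of 0.0652 and a log2 fold change of 4.46. The number of DEGs in B2 was 1 under most settings and 1 to 2 with 1 library left out. It was 2 with a replicate block on the 6 B2 libraries and, in an alternative chosen after seeing the data, with the female-typed libraries left out, the second gene being Gm26759, also in the fit without KI B2 replicate 3. It was 8 without a filter on low counts, 195 with DESeq2's own filtering, 336 with DESeq2 on the B2 libraries, and 0 with limma voom, where 612 genes had an unadjusted p below 0.05. Well-counted genes held within 2-fold numbered 1164 to 1632 with 1 library left out, 976 with the female-typed libraries left out (fewer samples) and 528 when well-counted meant 200 CPM. Genes with different KI effects in MemB and B2 numbered 5 to 10 with 1 library left out, with 5 without control B2 replicate 2 and 6 without control B2 replicate 3, 6 with upper quartile scaling, 3 without immunoglobulin genes, 4 with a non-robust fit, 41 without a filter, 6 with a replicate block and 414 with DESeq2. Deviations of same-numbered KI and control B2 libraries correlated at -0.0085, 0.016 and 0.00054. With replicates this variable, such low values cannot exclude a pairing by number, and replicate 3 was female-typed in every group. Same-numbered B2 and MemB libraries were not compared in this way. The replicate block on all libraries left 1 DEG, 1601 held genes and a Gpr34 log2 fold change of 4.46. Kit, 4.61, ranged from -0.0862 without KI B2 replicate 3 to 5.18 without KI B2 replicate 2. Of 153 other named genes, 16 were called under at least 1 alternative. The cause of these changes was not tested. Few genes below 50 CPM were held within 2-fold, so statements on small changes concern genes above that level.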
